A study of Mus musculus with 6 samples.

Results

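The genes described are 6 cytokine receptor chains (Il2rb, Il2rg, Il4ra, Il21r, Il6ra and Ifngr1) and 4 genes of the SOCS feedback family (Socs1, Socs2, Socs3 and Cish), chosen by name from the raw count table and set against each other in 3 ConA+SIM and 3 ConA libraries. All 10 were among the 23505 gene rows and all 10 passed the filter on low counts, as did 10509 rows in all. The libraries were made from CD4+ T cells of the liver of wild type mice with hepatitis caused by concanavalin A (ConA), a lectin from jack beans that stimulates T cells. ConA+SIM mice were given 30 mg/kg of simvastatin, a statin that lowers cholesterol, and ConA mice PBS, the vehicle, both by gavage. Doses were given every day for 5 days ahead of the ConA injection, 1 h ahead of it and 24 h afterwards in both groups. Cells were sorted as CD3+ CD4+ and lacking CD8 and NK1.1, an NK cell antigen. Both groups received ConA, and a group without it is not analysed here. The sources used here do not give strain, age, sex or the number of animals behind a sample. The p-values therefore describe how these 6 samples vary, and part of that variation may be technical.

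Cytokine receptors of this kind have no kinase of their own. Their chains hold JAK kinases, which phosphorylate STAT factors when a cytokine binds, and the STATs then enter the nucleus and switch on target genes. Among those targets are the SOCS genes, whose proteins bind the receptors or the kinases and damp the same signal, a feedback loop that limits T cell growth and helper differentiation.

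None of the 10 genes passed the test of a difference between ConA+SIM and ConA (edgeR quasi-likelihood test, adjusted p from 0.675 to 0.999). By that test 57 of 10509 genes were called, 0.542% of those tested, all higher in ConA+SIM. At an unadjusted p under 0.05 the test gave 0 of the 10, against 8.85% of all tested genes, and DESeq2, limma-voom and limma-voom with sample quality weights also called 0 of the 10, against 5.15%, 1.22% and 1.3% of the genes they tested. Of the 10 genes, 2 had an edgeR log2 fold change above 0 and 8 had one below 0, against 5047 and 5462 of all tested genes. Among the 8, Il2rb, Ifngr1 and Il4ra lay near 0, at -0.0041, -0.0067 and -0.039. The median was -0.12, against -0.041 over all tested genes. The 3 ConA+SIM values of Il2rg and of Il21r lay below the 3 ConA values, and those of the other 8 genes overlapped. Such separation in either direction was found in 17.8% of tested genes, and with ConA+SIM lower in 8.57%. The precision was limited over the tested genes as a whole. In simulated counts of 10509 genes with the spread of these libraries, the same test called 1% of those given a 2-fold change. It called 5% of those given a 4-fold change, so a miss of the threshold does not show that a gene was unaltered. These rates were not computed for the 10 genes alone, whose precision differed. In the edgeR fit the confidence intervals of Il2rb, Il2rg, Il4ra, Il21r, Ifngr1 and Socs3 lay within -0.91 to 0.64, short of a 2-fold change. Those of Il6ra, Cish, Socs2 and Socs1 reached past a 2-fold change. Total counts were 17549429 to 20441213 in ConA+SIM libraries and 18360352 to 25031862 in ConA libraries.

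**Figure D1:**
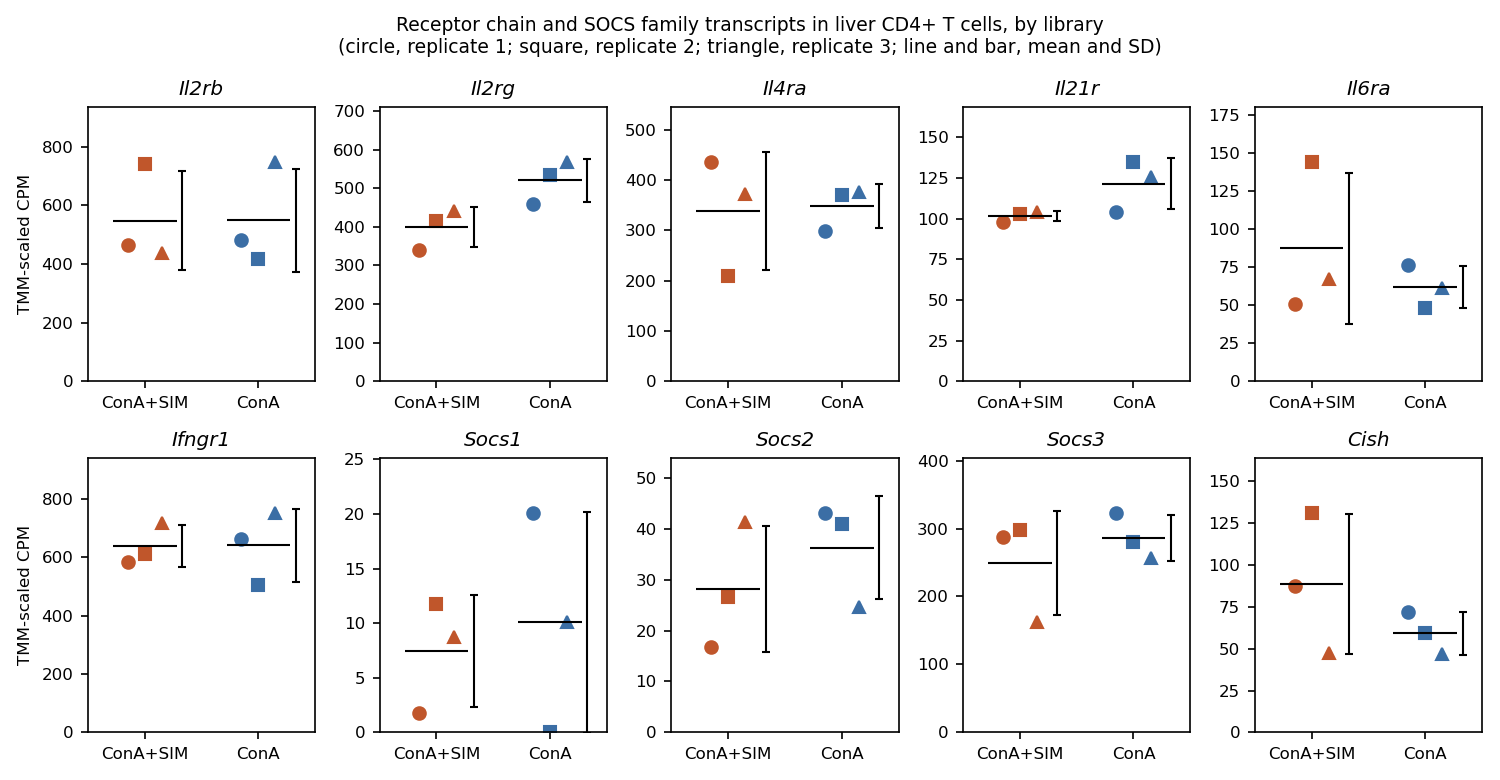
TMM-scaled CPM (vertical axes from 0) of the 10 genes in each ConA+SIM (orange) and ConA (blue) library, with the group mean and SD (n = 3 each). The groups stand apart in Il2rg and, by 0.0741 CPM, in Il21r, and overlap in the other 8 genes.

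Il2rg encodes the common gamma chain, which the receptors for interleukins 2, 4, 7, 9, 15 and 21 share and which binds the kinase JAK3 (chromosome X, 101264385 to 101268255, GRCm38.p6). It had 341, 416 and 439.9 CPM in ConA+SIM replicates 1 to 3 and 459, 534 and 568 CPM in ConA replicates 1 to 3, where CPM is the count relative to the TMM-scaled library total. All 3 ConA+SIM libraries lay below all 3 ConA libraries, by a gap of 19.1 CPM between the nearest. The means were 399 ± 51.3 and 520.5 ± 55.8 CPM (SD, n = 3 each). The log2 fold change was -0.38 ± 0.20 (SE), with a 95% interval from -0.83 to 0.06, and was not called by the edgeR test (adjusted p = 0.675). This was the smallest p of the 10 genes. The value ran from -0.61 to -0.28 over 15 alternative settings without passing in any, though several of these settings called 0 genes in the whole table.

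Il2rb encodes the beta chain, which binds JAK1 and serves the receptors for interleukins 2 and 15 (chromosome 15, 78479256 to 78511621). Its levels were 466, 741 and 436 CPM in ConA+SIM libraries and 482, 418 and 748 CPM in ConA libraries. Each group held 1 high library, ConA+SIM replicate 2 and ConA replicate 3, and the groups overlapped fully. Its log2 fold change of -0.0041 ± 0.29 had a 95% interval from -0.65 to 0.64 (edgeR adjusted p = 0.999). It turned to 0.31 without ConA replicate 3, 0.099 without ConA+SIM replicate 1 and 0.14 without ConA+SIM replicate 3. Divided by transcript length, the ratio of Il2rb to Il2rg in the same library was 0.543, 0.71 and 0.395 in ConA+SIM and 0.418, 0.312 and 0.524 in ConA, so that the gamma chain transcript was the more abundant in all 6 libraries.

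Il4ra, the ligand-binding chain for interleukin-4 that signals to STAT6, and Il21r, the chain that pairs with the gamma chain for interleukin-21, are neighbours on chromosome 7 (125552271 to 125579474 and 125603252 to 125634397). Il4ra had 436, 209 and 372 CPM in ConA+SIM libraries and 298, 370.5 and 377 CPM in ConA libraries. ConA+SIM replicate 1 held the highest and ConA+SIM replicate 2 the lowest of the 6 values. Its log2 fold change was -0.039 ± 0.29 (95% interval -0.68 to 0.61, edgeR adjusted p = 0.999), and it was 0.22 without ConA+SIM replicate 2 and 0.044 without ConA replicate 3.

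Il21r had 98.3, 103 and 104 CPM in ConA+SIM libraries and 104, 135 and 126 CPM in ConA libraries. The ConA+SIM values were close to each other, with an SD of 3.15 CPM against 15.8 CPM in ConA, and the separation of the groups rested on a gap of 0.0741 CPM to ConA replicate 1. On the log2 scale the difference was -0.26 ± 0.29, with a 95% interval from -0.91 to 0.39 (edgeR adjusted p = 0.999), and it was -0.045 with offsets that correct every library for transcript length and GC content.

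Il6ra encodes the chain that captures interleukin-6, which naive T cells carry and activated T cells shed (chromosome 3, 89869324 to 89913196). It had 50.8, 144 and 67.2 CPM in ConA+SIM libraries and 76.2, 48.4 and 61.4 CPM in ConA libraries. ConA+SIM replicate 2 stood above the other 5 libraries, which lay within each other's range. Il6ra had a log2 fold change of 0.49 ± 0.47 (95% interval -0.57 to 1.55, edgeR adjusted p = 0.999) and -0.07 without ConA+SIM replicate 2. With sample quality weights in limma-voom it was 0.062, and with the length and GC offsets 0.77. Il6ra is also made by macrophages, neutrophils and hepatocytes. In ConA+SIM replicate 2 macrophage markers summed to 691 CPM and hepatocyte markers to 291 CPM, each the lowest of the 6 libraries. Neutrophil markers summed to 617 CPM there, within the range of the others. In that library 18.4% of tested genes were at 0 counts. The part of these cells in the Il6ra values was not tested.

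Ifngr1, the ligand-binding chain for interferon gamma, had 584, 609.6 and 719 CPM in ConA+SIM libraries and 663, 506 and 752 CPM in ConA libraries (chromosome 10, 19591949 to 19610229). The ConA values enclosed those of ConA+SIM. Between the groups its log2 fold change was -0.0067 ± 0.20, with a 95% interval from -0.47 to 0.45, among the narrowest of the 10 genes (edgeR adjusted p = 0.999). Its sign turned when 1 library was left out, to 0.15 without ConA replicate 3, 0.053 without ConA+SIM replicate 1, 0.026 without ConA+SIM replicate 2 and 0.0058 without ConA replicate 1.

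Cish and Socs3 open the account of the feedback genes because STAT factors are known to bind beside their start sites. The sequences below, from RefSeq on GRCm38.p6, run from 250 bases before to 50 bases after 1 start site per gene that the promoter table uses, 5′ to 3′ on the gene's strand. Capitals mark matches to TTCNNNGAA, the palindrome that STAT factors recognise, which reads the same pattern on both strands. Cish is chr9:107296409-107296708 on the plus strand and Socs3 is chr11:117969317-117969616 on the minus strand. The site used for Socs3, base 117969366, lies 970 bases inside the outer 5′ end of the RefSeq gene span, and the window does not reach that end. Whether the Socs3 match is a site known to bind STAT factors was not examined.
Cish: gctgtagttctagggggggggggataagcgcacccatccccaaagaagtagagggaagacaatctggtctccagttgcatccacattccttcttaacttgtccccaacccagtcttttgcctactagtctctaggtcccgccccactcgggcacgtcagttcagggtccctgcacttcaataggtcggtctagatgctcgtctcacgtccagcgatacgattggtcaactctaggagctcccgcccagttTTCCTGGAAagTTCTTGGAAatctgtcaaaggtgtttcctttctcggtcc
Socs3: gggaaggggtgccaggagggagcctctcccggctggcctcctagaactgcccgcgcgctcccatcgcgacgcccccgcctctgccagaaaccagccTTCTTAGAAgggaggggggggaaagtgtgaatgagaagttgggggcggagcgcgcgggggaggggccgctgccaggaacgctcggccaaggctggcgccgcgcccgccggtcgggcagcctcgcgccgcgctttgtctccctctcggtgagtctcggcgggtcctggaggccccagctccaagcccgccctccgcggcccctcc
Counting from 1 at the site used, the Cish matches TTCCTGGAA and TTCTTGGAA begin at bases 1 and 12, and the Socs3 match TTCTTAGAA begins at base -154. Of 32851 promoter windows of 300 bases in the table, 8.3% held at least 1 match and 0.457% held at least 2. The windows of the other 6 genes found in the table, Socs1, Il2rg, Il4ra, Il21r, Il6ra and Ifngr1, held none, that of Il21r lying 177 bases inside its gene span; Socs2 and Il2rb were not matched to a window. A match is a description of these letters and does not show that a factor was bound in these cells.

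Cish encodes the founding member of the family, a protein induced through STAT5 by interleukin-2 that also restrains T cell receptor signalling (chromosome 9, 107296659 to 107302784). It had 87.4, 131 and 47.2 CPM in ConA+SIM libraries and 72.1, 59.1 and 46.5 CPM in ConA libraries. The 2 highest values were ConA+SIM replicates 2 and 1, whereas ConA+SIM replicate 3 lay beside the lowest ConA library. The mean was 88.5 ± 41.8 CPM in ConA+SIM and 59.2 ± 12.8 CPM in ConA. The log2 fold change of 0.58 ± 0.45 was the highest of the 10 genes and was not called (95% interval -0.44 to 1.60, edgeR adjusted p = 0.94). It was 0.19 without ConA+SIM replicate 2, 0.88 without ConA+SIM replicate 3 and 0.34 with sample quality weights.

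Socs3, a brake on interleukin-6 signalling through STAT3, was the most abundant of the 4 feedback genes (chromosome 11, 117966079 to 117970336). It had 288, 298 and 162 CPM in ConA+SIM libraries and 323, 279.7 and 256 CPM in ConA libraries. ConA+SIM replicate 3 was the lowest of the 6, and the other 5 lay close together. The log2 fold change was -0.20 ± 0.28 (95% interval -0.83 to 0.43, edgeR adjusted p = 0.999), and 0.034 without ConA+SIM replicate 3. Socs3 made up 73.1%, 63.8% and 62.4% of the summed CPM of the 4 genes in ConA+SIM libraries and 70.5%, 73.6% and 75.9% in ConA libraries.

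Socs2, a STAT5 target best known for limiting growth hormone signalling, had 16.7, 26.5 and 41.3 CPM in ConA+SIM libraries and 43.1, 41.0 and 24.7 CPM in ConA libraries (chromosome 10, 95383903 to 95417321). ConA+SIM replicate 3 reached the level of ConA replicates 1 and 2, and the groups overlapped. For Socs2 the log2 fold change was -0.37 ± 0.67, with a 95% interval from -1.89 to 1.15 (edgeR adjusted p = 0.999). It was -0.75 without ConA+SIM replicate 3 and -0.096 without ConA+SIM replicate 1.

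Socs1, an inhibitor of JAK kinases and the main brake on interferon gamma signalling, was the least abundant of the 10 and the least even (chromosome 16, 10783808 to 10785536). It had 34, 202 and 164 counts in ConA+SIM libraries and 466, 0 and 256 counts in ConA libraries, which is 1.82, 11.8 and 8.77 CPM and 20.1, 0 and 10.1 CPM. The highest and the lowest value both belonged to ConA. A count of 0 in ConA replicate 2 allows up to 3 counts at 95% confidence, 0.151 CPM, for counting error only. In that library 449 of 8398 tested genes that averaged at least 10 CPM in the other ConA libraries (5.35%) were at 0, against 1.15% to 11.8% in the other 5 libraries by the same measure. The log2 fold change was -0.43 ± 2.47, and the 95% interval ran from -6.01 to 5.14, so neither direction nor size could be read at this spread (edgeR adjusted p = 0.999). It was 0.55 without ConA replicate 1 and -1.02 without ConA replicate 2.

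**Figure D2:**
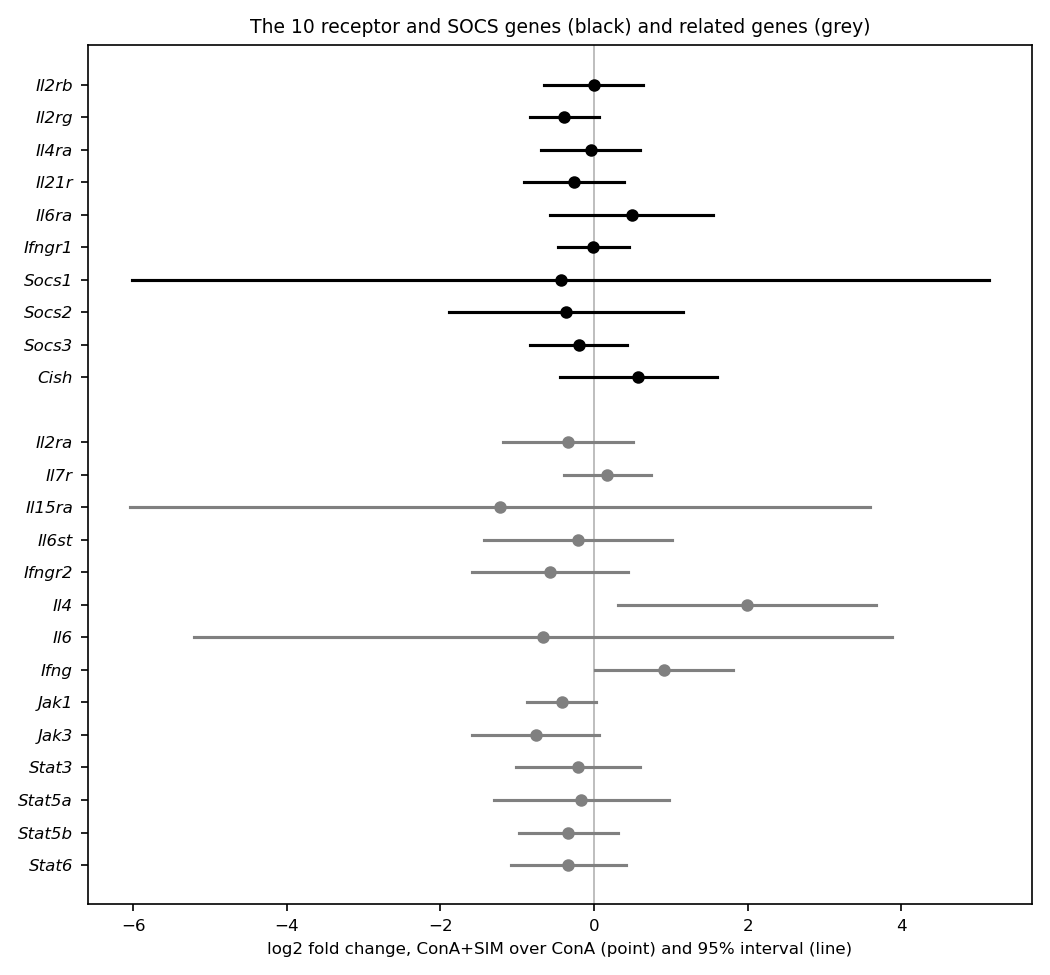
Log2 fold change of ConA+SIM over ConA (points) with its 95% interval (lines) from the edgeR fit, for the 10 genes in black and for related receptor, cytokine, kinase and STAT genes in grey. The intervals of all 10 genes include 0, and that of Socs1 spans -6.01 to 5.14.

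Set per kb of transcript, the scale on which different genes can be compared, the order over the 6 libraries was Ifngr1, Il2rg, Il2rb, Socs3, Il4ra, Il21r, Cish, Il6ra, Socs2 and Socs1. The mean levels over all 6 libraries ran from 303 CPM per kb for Ifngr1 and 275 for Il2rg, through 131 for Il2rb, 105 for Socs3 and 65.5 for Il4ra, to 14.5 for Socs2 and 3.01 for Socs1. Neighbours in this order overlapped in their ranges except Il2rg over Il2rb and Socs2 over Socs1, each of which held in all 6 libraries. Ifngr1 stood above Il2rg in 5 of 6 libraries, and Il2rb above Socs3 in 3 of 6. The transcript used for Socs1 was 2908 nt long, whereas its RefSeq gene spans 1729 bases, so its level per kb may be understated. Among 32 tested receptor chains, the 6 chains took ranks 1 (Ifngr1), 2 (Il2rg), 3 (Il2rb), 5 (Il4ra), 10 (Il21r) and 16 (Il6ra).

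**Figure D3:**
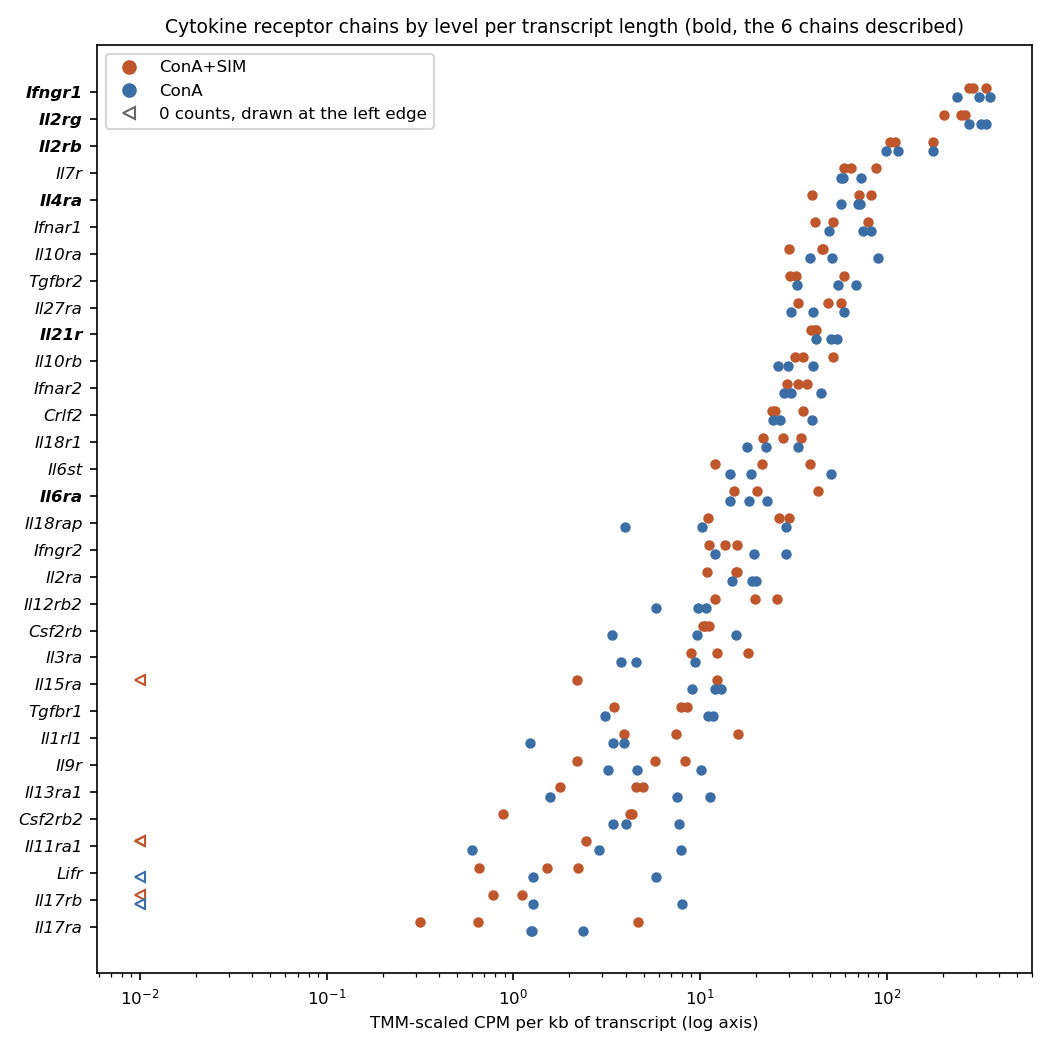
Level per transcript length (TMM-scaled CPM per kb, log axis) of 32 tested cytokine receptor chains in each ConA+SIM (orange) and ConA (blue) library, ordered by the mean of the 6. Ifngr1, Il2rg and Il2rb lead the order, with means of 303, 275 and 131 CPM per kb.

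Other cytokine receptor chains gave no called difference either. They include partner chains that complete these receptors and also chains of other receptors, such as Tgfbr1, Il17ra and Il18r1. Of 30 other receptor chains fixed as a list, 26 could be tested and 0 passed the threshold by edgeR. Their log2 fold changes were above 0 in 10 and below 0 in 16, against 5047 and 5462 of all tested genes, with a median of -0.17. At an unadjusted p under 0.05 there were 0, against 8.85% of all tested genes. Il2ra, the alpha chain that raises affinity for interleukin-2, had 69.8, 69.3 and 48.2 CPM in ConA+SIM and 83.5, 87.9 and 65.3 CPM in ConA, with ConA replicate 3 below 2 of the ConA+SIM libraries (log2 fold change -0.34 ± 0.38, and -0.18 without ConA+SIM replicate 3 or with length offsets). Il7r, the interleukin-7 chain of naive and memory cells, averaged 250 ± 54.9 CPM in ConA+SIM and 221 ± 30.9 CPM in ConA. Il6st, the signalling chain for interleukin-6, had 105, 337 and 186 CPM in ConA+SIM and 126, 437 and 163 CPM in ConA. Its high library in each group was replicate 2, and in ConA replicate 2 sinusoidal endothelial markers summed to 2530 CPM against 355 to 953 CPM in the other 5 libraries; their part in this value was not tested. Ifngr2, the second interferon gamma chain, had 41.4, 50.6 and 58.6 CPM in ConA+SIM and 44.3, 107 and 72.3 CPM in ConA, a log2 fold change of -0.57 ± 0.45 that was -0.23 without ConA replicate 2 and -0.37 with length and GC offsets.

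Ifngr1 exceeded Ifngr2 in every library, by 24.8, 21.1 and 21.5 times per kb in ConA+SIM and by 26.3, 8.28 and 18.3 times in ConA. Il15ra had 3.52, 0 and 19.9 CPM in ConA+SIM and 20.8, 19.3 and 14.5 CPM in ConA, with a 95% interval from -6.03 to 3.59 on the log2 scale. The chains with the smallest p in each direction were Il1rl1, the interleukin-33 receptor, with 20.8, 84.1 and 39.7 CPM in ConA+SIM and 20.8, 6.5 and 18.2 CPM in ConA (log2 fold change 1.67 ± 0.81, adjusted p = 0.64), Il12rb2, an interleukin-12 chain, with 35.9, 77.8 and 59 CPM in ConA+SIM and 32.3, 17.5 and 29.3 CPM in ConA (1.13 ± 0.56, adjusted p = 0.652), and Il10ra, the interleukin-10 chain, with 105, 160.1 and 158 CPM in ConA+SIM and 315, 179 and 136 CPM in ConA (-0.58 ± 0.36). The value of Il1rl1 was 0.99 without ConA+SIM replicate 2 and 1.06 with sample quality weights. That of Il10ra was -0.17 without ConA replicate 1, the high library, and -0.26 with length and GC offsets. The row Il17ra had a second row of the same gene with up to 480 counts, and Il12rb1 was almost wholly in its second row, so these 2 genes are uncertain.

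Of the 9 ligand genes on the fixed list, 3 had enough counts to be tested and 0 passed. By edgeR 2 of the 3 had an unadjusted p under 0.05, against 8.85% of all tested genes. Groups without overlap were found in 17.8% of all tested genes. Il4, the cytokine of the Il4ra receptor, had 38.2, 88.4 and 33.7 CPM in ConA+SIM and 6.74, 13.4 and 20.2 CPM in ConA, with no overlap (log2 fold change 1.99 ± 0.75, edgeR adjusted p = 0.443). Ifng, the ligand of Ifngr1, had 355, 249 and 172 CPM in ConA+SIM and 208, 124 and 80.1 CPM in ConA, with overlap (0.91 ± 0.40, edgeR adjusted p = 0.553). Both differences were smaller with offsets, at 1.31 for Il4 and 0.53 for Ifng with transcript length and at 0.78 and 0.17 with length and GC content. Il6 had 17.5, 0 and 15.6 CPM in ConA+SIM and 26.6, 12.5 and 13.2 CPM in ConA. No library had more than 7 counts in the plain row of Il2, which was not tested. The matching receptor chains Il4ra and Ifngr1 had log2 fold changes of -0.039 and -0.0067.

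Among the 11 JAK and STAT genes that relay these signals, 0 passed the threshold by edgeR. Their log2 fold changes were above 0 in 2 and below 0 in 9, against 5047 and 5462 of all tested genes, with a median of -0.33. At an unadjusted p under 0.05 there were 0, against 8.85% of all tested genes. Groups without overlap were found in 17.8% of all tested genes. Jak3, the kinase of the gamma chain, had 104, 55.4 and 87 CPM in ConA+SIM and 127, 185 and 106 CPM in ConA, with no overlap (log2 fold change -0.76 ± 0.37, adjusted p = 0.626). Jak1, the kinase of the partner chains, had 574, 714 and 763 CPM in ConA+SIM and 739, 1050.1 and 952 CPM in ConA (-0.42 ± 0.20, adjusted p = 0.626). Stat5a and Stat5b, the factors behind the Cish response to interleukin-2, had log2 fold changes of -0.16 ± 0.50 and -0.33 ± 0.29, Stat6 one of -0.33 ± 0.33 and Stat3 one of -0.21 ± 0.36. Values above 0 belonged to Stat4 (0.45 ± 0.30) and Jak2 (0.24 ± 0.22), which were 0.21 and 0.059 without ConA+SIM replicate 3. With offsets that correct every library for transcript length and GC content, the median of this list was 0.17 in place of -0.33, Jak3 was at -0.18 and Jak1 at -0.19, and the values of Stat3, Stat5a, Stat5b and Stat6 turned positive, so no direction is given for the family.

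Beyond the SOCS genes, 19 other brakes and SOCS partners were tested and 0 passed, with a median log2 fold change of 0.23. By edgeR 4 of the 19 had an unadjusted p under 0.05, against 8.85% of all tested genes. Groups without overlap were found in 17.8% of all tested genes. Ptpn6, the phosphatase SHP-1 that acts on receptors and JAKs, had 229, 103 and 172 CPM in ConA+SIM and 324, 528 and 321 CPM in ConA, with no overlap and the smallest p of the list (log2 fold change -1.22 ± 0.34, edgeR adjusted p = 0.27). DESeq2 called this gene lower (-1.25, adjusted p = 0.0021), as it called 5.15% of the genes it tested in either direction. This was the 1 call among 420 values of related genes under the alternatives, several of which called 0 genes in the whole table. Ptpn11, the related phosphatase SHP-2, had 60.3, 22.5 and 58.3 CPM in ConA+SIM and 102, 64.0 and 129 CPM in ConA, also with no overlap (-1.07 ± 0.49, adjusted p = 0.589). Eloc and Rnf7, parts of the ubiquitin ligase that SOCS proteins recruit, had log2 fold changes of 1.11 ± 0.42 (adjusted p = 0.446) and 1.34 ± 0.53 (adjusted p = 0.483), both short of the threshold. The groups did not overlap in Eloc and did in Rnf7. With length and GC offsets these values were 0.24 for Eloc and 0.72 for Rnf7, and that of Ptpn11 was -0.55. The remaining gene at an unadjusted p under 0.05 was Socs4, a less studied SOCS family member named after its value was seen (0.89, adjusted p = 0.552).

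Targets of interleukin-2 and STAT5 likewise gave 0 calls among 19 tested genes by edgeR. Their log2 fold changes were above 0 in 9 and below 0 in 10, against 5047 and 5462 of all tested genes, with a median of -0.065. Groups without overlap were found in 17.8% of all tested genes. In this list 1 gene had an unadjusted p under 0.05, against 8.85% of all tested genes. That gene was Ccnd2, which encodes cyclin D2, with 166, 90.7 and 133 CPM in ConA+SIM and 223, 223 and 196 CPM in ConA and no overlap. Its log2 fold change was -0.72 ± 0.29 (adjusted p = 0.495), and -0.40 with length and GC offsets. Mcl1, a survival factor, averaged 1073 ± 86.2 CPM in ConA+SIM and 858 ± 92.0 CPM in ConA with no overlap (0.32 ± 0.17, adjusted p = 0.672). Bcl2l1, another survival factor, had a log2 fold change of 0.71 ± 0.65, and Prdm1, which encodes Blimp-1, one of -0.55 ± 0.47. Bcl2l1 was at 0.28 without ConA replicate 2, and Prdm1 ran from -1.15 to -0.24 as each library was left out. Icos, also on this list, had a second row with up to 805 counts, against 770 to 3923 in the row tested, so its value is uncertain.

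**Figure D4:**
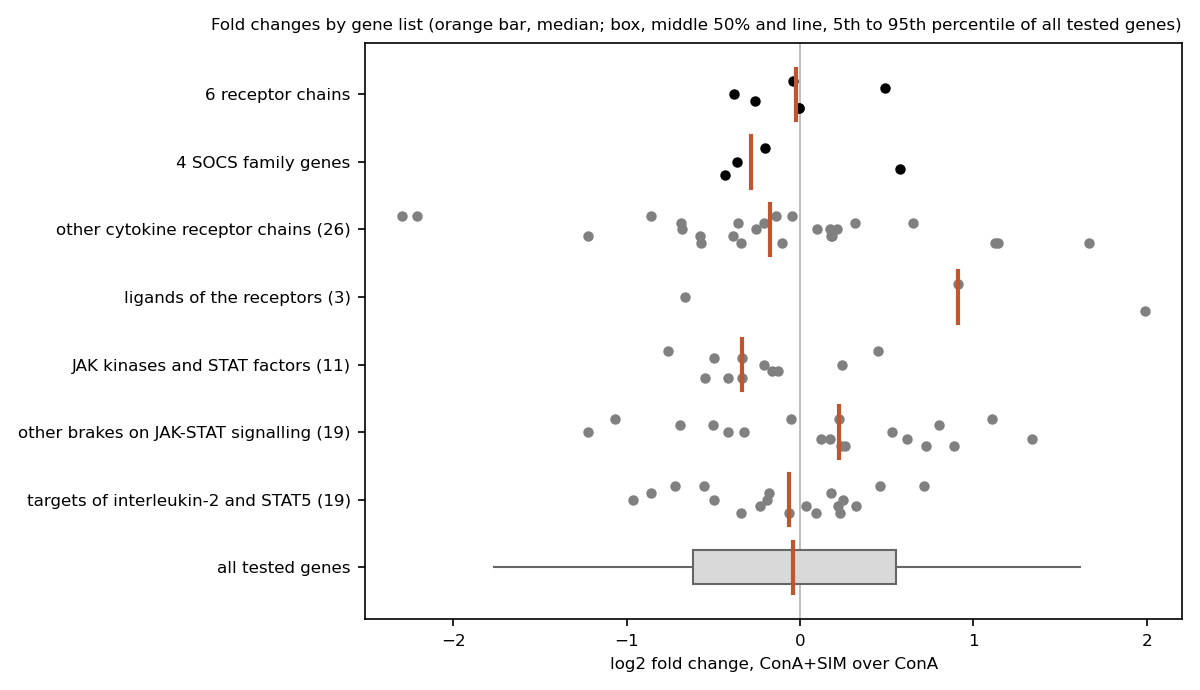
Log2 fold change of ConA+SIM over ConA for each tested gene of the fixed lists (points), with the list median (orange), above the spread of all 10509 tested genes (box, middle 50%; line, 5th to 95th percentile). The 6 receptor chains had a median of -0.023 and the 4 SOCS family genes one of -0.28.

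The genes whose pattern over the 6 libraries was most like that of Il2rg were Pdcd4, Pfkp and Jak1, out of 10508 other tested genes. Likeness was the mean absolute difference of log2 CPM values centred on each gene's own mean, which was 0.0356 for Pdcd4, 0.0445 for Pfkp and 0.0638 for Jak1. Pdcd4 had 179, 216 and 212 CPM in ConA+SIM and 242, 274 and 303 CPM in ConA, and Pfkp 144, 179.9 and 192 CPM in ConA+SIM and 219, 241 and 249 CPM in ConA. Jak1 was the one of the 3 genes whose groups overlapped. Groups without overlap were found in 17.8% of all tested genes. The 3 genes were picked for likeness to Il2rg, whose groups stood apart, so the separation of Pdcd4 and Pfkp follows from that choice.

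The sorted cells carried the markers of CD4+ T cells in all 6 libraries: 8 T cell markers summed to 3386 to 3547 CPM in ConA+SIM and 2193 to 3452 CPM in ConA, with Cd4 at 491 ± 63.3 and 599 ± 148 CPM. Transcripts of other cells that make these receptors were present as well, and fewer cells of a type cannot be told apart from less RNA per cell. The summed level of 14 macrophage markers was 691 to 2120 CPM in ConA+SIM and 1443 to 3170 CPM in ConA, that of 8 B cell markers 550.1 to 1015 and 138 to 1361 CPM, and that of 8 neutrophil markers 617 to 975 CPM and 313 to 559 CPM, with Ly6g at 0 counts throughout. That of 10 NK cell markers was 259 to 502 CPM in ConA+SIM and 201 to 303 CPM in ConA, with Ncr1 at 0 counts throughout and Klrb1c, which encodes NK1.1, at 42.0 ± 2.58 and 14.8 ± 7.09 CPM. NK cells also express Il2rb, and their part in its level was not tested. By library the NK sums were 325, 259 and 502 CPM in ConA+SIM and 303, 271 and 201 CPM in ConA. Naive and central memory markers summed to 3346 to 3953 CPM in ConA+SIM and 2898 to 5127 CPM in ConA. The part of these cells in the values above was not tested.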

How the data were processed

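RNA sequencing counts of 6 liver CD4+ T cell libraries were analysed, 3 per group. The submitters' processing notes name the aligner HISAT2 2.1.0 and the build GRCm38. The sources used here do not give the counting tool, annotation, strand setting or rule for multiply matching reads. Raw counts, whole numbers without normalization, were deposited by the authors in 1 table with a column named by the title of each sample; 0 columns were left unused. None of the 10 genes had a second row. The members and gene lists were chosen with earlier results of these data known.

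Genes were kept with filterByExpr, scaled by TMM and tested with the robust quasi-likelihood F test of edgeR 4.0.16 (R 4.3.3) for ConA+SIM over ConA with no covariate, with Benjamini-Hochberg adjustment over 10509 genes at a threshold of 0.05. The SE is the log2 fold change divided by the square root of F, and 95% intervals use the test's degrees of freedom. Transcript lengths, 1 principal transcript per gene, are from GENCODE M21 on GRCm38, for 98.4% of tested genes; positions and promoters are from RefSeq on GRCm38.p6. The common biological coefficient of variation was 1.12. No pair of libraries of a group agreed within sampling noise (chi-square 143 to 301 times its degrees of freedom). The procedure was tested on simulated data of 10509 genes, where it called 0 unchanged genes.

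Genes named are the 10 members, 17 partner chains, ligands, kinases and STAT genes, up to 2 genes per list and direction with the smallest p, and 3 genes most like the member with the smallest p. A gene that this rule names is not reported here. Alternatives were RLE scaling, no filter, at least 5 CPM in 3 libraries, DESeq2 1.42.0, limma-voom 3.58.1 without and with quality weights, a replicate block, each library left out in turn, and offsets for transcript length or length and GC content, fitted with mgcv 1.9.3 on the more abundant genes, a choice made after seeing the data.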

Additional observations from a re-analysis of the deposited data

How the results depend on the processing

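None of the 150 values of the 10 genes under 15 alternatives passed the threshold, 0 of them under DESeq2 or limma-voom, and 25 had the other sign. Many of the 150 could not pass, because their setting called 0 genes in the whole table. Those settings were the replicate block, the length offsets with or without GC content, and each library left out except ConA+SIM replicate 3. Il2rb was at 0.0036 with RLE scaling, 0.0034 with DESeq2, 0.12 with transcript length offsets and 0.43 with length and GC offsets. Il4ra was at 0.093 with quality weights, 0.19 with length offsets and 0.58 with length and GC offsets, and Socs3 at 0.069 with the last. Socs1 was at 1.60 with limma-voom and 0.82 with quality weights. With the replicate block, Ifngr1 was at 0.0065 and Socs1 at 0.21. The count of called genes, 57, was 537 with DESeq2 (345 higher, 192 lower), 128 with limma-voom, 137 with quality weights and 0 with the replicate block, with length offsets or with length and GC offsets. Same-numbered libraries deviated together with correlations of 0.0111, 0.00878 and 0.0328, and 1 of the 3 ConA+SIM libraries correlated best with its own number. With 3 libraries per group these values cannot show whether same-numbered samples were handled together. The labels do not state a pairing.

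With length and GC offsets, Il7r was at -0.25, Il6st at 0.24 (0.17 with length offsets alone), Stat3 at 0.22, Stat5a at 0.27, Stat5b at 0.17 and Stat6 at 0.061. List medians moved to 0.19 for the 6 receptor chains, 0.034 for other receptor chains, 0.17 for ligands and 0.17 for JAK and STAT genes (-0.11 with length offsets alone). The SOCS median was 0.11 with limma-voom and that of other brakes 0.55 with quality weights. The cause of these shifts was not tested.

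Leaving out 1 library each, the count ran from 0 to 3. Log2 fold changes ran from -0.28 to 0.31 for Il2rb, -0.48 to -0.28 for Il2rg, -0.26 to 0.22 for Il4ra, -0.37 to -0.19 for Il21r, -0.07 to 0.76 for Il6ra, -0.17 to 0.15 for Ifngr1, -1.02 to 0.55 for Socs1, -0.75 to -0.096 for Socs2, -0.35 to 0.034 for Socs3 and 0.19 to 0.88 for Cish. Among related genes whose sign turned, the range was -0.016 to 0.29 for Il7r, -0.73 to 0.52 for Il6st, -0.49 to 0.24 for Stat3 and -0.46 to 0.20 for Stat5a. List medians ran from -0.17 to 0.097 for the receptor chains, -0.33 to 0.22 for the SOCS genes, -0.27 to -0.034 for all 10, -0.22 to 0.069 for other receptor chains, 0.61 to 1.33 for ligands, -0.39 to -0.23 for JAK and STAT genes, 0.083 to 0.34 for other brakes and -0.29 to 0.15 for interleukin-2 targets.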

Other observations

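Il21, the cytokine of the Il21r receptor and a product of follicular helper cells, had its counts mostly in 1 library, with fewer in another: its plain row held 0, 0 and 399 counts in ConA+SIM replicates 1 to 3 and 1, 0 and 43 counts in ConA replicates 1 to 3. The 399 counts are 21.3 CPM. Il21r in that library, at 104 CPM, was like the other ConA+SIM libraries at 98.3 and 103 CPM. The gene did not pass the filter on low counts and was not tested.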
